A study of Mus musculus with 6 samples.

Results

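The 33 genes described here were the p53 gene, its inhibitors, genes that p53 is known to switch on, and genes that sense, signal or repair DNA damage. They were taken by gene symbol from the deposited table, and 33 of 33 were found among its 18121 genes. The rule went by gene name and role and not by a level or difference, although earlier results of these data were known when it was set. By role, 23 members were counted as p53 targets and 6 as damage sensors, checkpoint kinases and repair mediators (Atm, Atr, Chek1, Chek2, Trp53bp1 and Brca1). The other 4 (Trp53, Mdm4, Gadd45b and Gadd45g) were placed on neither side, because p53 is not their main known inducer. The cells were Lin-CD117+ bone marrow cells of C57BL/6 mice, which the labels call hematopoietic stem cells, enriched on columns by lineage depletion and then CD117 selection and kept in culture. GA libraries (n = 3) came from cells treated for 24 h with glycyrrhizic acid (GA), a triterpenoid saponin of licorice root, and Ctrl libraries (n = 3) from cells in normal culture. No genetic change was made in either group, and the GA concentration of this experiment is not given in the sources used here. The mice were young adults, and whether the libraries of a group were taken from different mice or culture wells is not said in the labels or the methods. The p-values below therefore describe the variation among these 6 libraries, and part of it may be technical.

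p53 is a transcription factor that is held at a low level by the ubiquitin ligase Mdm2 and restrained by its relative Mdm4. When DNA is damaged, the kinases Atm and Atr, with Chek1 and Chek2 below them, phosphorylate p53 and free it from Mdm2, and the accumulated protein binds DNA and switches on genes of cell-cycle arrest, repair and cell death, together with Mdm2 itself as a negative feedback. In blood stem and progenitor cells p53 is known for keeping stem cells quiescent and for the loss of progenitors after irradiation. The kinases and mediators are controlled mainly by modification of the protein, while the p53 targets are read at the RNA level, which is why the 2 kinds of gene are set side by side here.

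p53 binds pairs of a 10-base decamer, and this decamer was searched on both strands (it is its own reverse complement) in the RefSeq promoter windows of GRCm38.p6, which run from 250 bases before to 50 bases after each start site. Windows were given for 26 members; Tnfrsf10b, Perp, Zmat3, Xpc, Trp53inp1, Ddb2 and Rrm2b had none. A decamer was found for 8 of 16 p53 targets (50%: Gadd45a, Mdm2, Ccng1, Ppm1d, Aen, Ei24, Sesn1 and Polk), for Trp53 itself and for 0 of 6 sensors and repair mediators, against 9.55% of 27025 genes and 8.36% of all 32851 windows. A gene was counted if any of its windows held a decamer, and Sesn1 and Polk each also had a window without one. A pair of decamers separated by 0 to 13 bases was in 0 of 30 member windows and in 24 of all windows. A match is a description of the letters and not a shown binding site, and the windows leave out introns, where p53 is known to bind at several of these genes. The 4 windows below are shown for the member with the smallest p of the comparison (Gadd45a), the feedback inhibitor (Mdm2), the most abundant member (Ccng1) and p53 itself (Trp53), each 5′ to 3′ on the gene's strand with the decamer in capitals. The decamer starts at position -40 from the start site in Gadd45a (chr6:67037358-67037657, minus strand), -186 in Mdm2 (chr10:117710709-117711008, minus strand), -185 in Ccng1 (chr11:40755237-40755536, minus strand) and -75 in Trp53 (chr11:69580109-69580408, plus strand).
Gadd45a: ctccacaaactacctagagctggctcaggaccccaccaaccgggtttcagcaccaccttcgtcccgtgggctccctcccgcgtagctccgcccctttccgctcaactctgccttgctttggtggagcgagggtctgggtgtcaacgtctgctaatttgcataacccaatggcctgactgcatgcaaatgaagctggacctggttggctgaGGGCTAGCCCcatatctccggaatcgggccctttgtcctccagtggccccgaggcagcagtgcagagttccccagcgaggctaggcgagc
Mdm2: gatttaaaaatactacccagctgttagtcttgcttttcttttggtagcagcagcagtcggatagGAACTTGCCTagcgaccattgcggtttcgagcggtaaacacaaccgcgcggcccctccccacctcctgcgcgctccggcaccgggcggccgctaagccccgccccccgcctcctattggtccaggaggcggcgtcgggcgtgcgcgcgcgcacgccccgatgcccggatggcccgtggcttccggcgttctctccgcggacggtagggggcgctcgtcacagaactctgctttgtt
Ccng1: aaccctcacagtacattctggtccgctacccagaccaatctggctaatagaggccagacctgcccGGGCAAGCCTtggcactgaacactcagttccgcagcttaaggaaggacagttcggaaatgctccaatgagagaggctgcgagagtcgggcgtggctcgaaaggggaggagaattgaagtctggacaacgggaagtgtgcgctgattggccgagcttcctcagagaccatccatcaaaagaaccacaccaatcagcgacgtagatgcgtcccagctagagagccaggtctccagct
Trp53: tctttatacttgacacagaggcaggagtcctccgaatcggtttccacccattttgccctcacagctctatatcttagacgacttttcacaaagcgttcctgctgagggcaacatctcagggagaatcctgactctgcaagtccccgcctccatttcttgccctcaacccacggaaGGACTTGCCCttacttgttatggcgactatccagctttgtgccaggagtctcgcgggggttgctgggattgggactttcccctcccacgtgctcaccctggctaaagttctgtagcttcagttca

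One GA library stood apart from the rest. GA replicate 1 correlated with the other libraries across genes at r = 0.9942 to 0.9954, and all pairs without it at 0.9961 to 0.9977; its FPKM values summed to 555449, against 515444 to 525018 in the other GA libraries and 508672 to 511802 in Ctrl libraries. It held the lowest of the 6 values for 38.8% of the 10912 tested genes. The table gives FPKM only, so the number of fragments behind a value, and with it a counting interval, is unknown. Of the markers of the labelled cells, Kit was 16.04 to 21.20 FPKM in GA libraries and 17.05 to 19.57 FPKM in Ctrl libraries, and Cd34 42.99 to 44.33 FPKM in GA libraries and 40.14 to 42.99 FPKM in Ctrl libraries, while Mecom, a gene of long-term stem cells, was at most 0.72 FPKM in GA libraries and 0.73 FPKM in Ctrl libraries. Procr, another stem cell marker, was 5.73, 6.93 and 7.62 FPKM in GA libraries and 5.77, 4.98 and 6.05 FPKM in Ctrl libraries, a log2 difference of 0.23 (unadjusted p = 0.0464, limma adjusted p = 0.363). The platelet gene Pf4 was at 11829 FPKM or more in all 6 libraries. Of 17 neutrophil genes tested, 16 were higher in GA, with a median log2 difference of 0.19 that was positive under all 18 alternatives, and 7 (41.2%) had no overlap, all higher, against 11.6% of all tested genes. The summed level of that list was 2168 to 2266 FPKM in GA libraries and 1754 to 1981 FPKM in Ctrl libraries, with Ly6g at most 0.80 FPKM in GA libraries and 0.57 FPKM in Ctrl libraries and none at 0. The rise was not limited to neutrophil genes. Of 7 mast cell and basophil genes tested, 6 were higher in GA, with a median log2 difference of 0.18, and 3 (42.9%) had no overlap, all higher. Of 15 monocyte, macrophage and dendritic genes tested, 9 were higher and 6 lower. The part of neutrophil, mast cell or basophil RNA in the values of Btg2 and Plk3 was not tested.

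No gene of the table passed the test between GA and Ctrl. The test was limma on log2(FPKM + 1), over the 10912 genes that averaged 1 FPKM or more, with Benjamini-Hochberg adjustment over those genes and a threshold of 0.05. It called 0 genes (0.0%), and 1474 genes (13.5%) had an unadjusted p under 0.05, of which 969 (8.88% of tested genes) were higher and 505 (4.63%) lower in GA. That split depended on the scaling, as it was 295 higher and 860 lower after all libraries were brought to 1 common sum. Without the mean-variance trend, limma also called 0 genes, with 809 higher and 490 lower at an unadjusted p under 0.05. All 33 members passed the filter, with means over the 6 libraries of 1.99 FPKM (Ddb2) to 125.2 FPKM (Ccng1), and 18 of them were below the median tested gene at 12.7 FPKM. The smallest limma adjusted p of a member was 0.249. In bulk RNA of this kind, fewer cells of a type and less RNA per cell cannot be told apart.

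**Figure D1:**
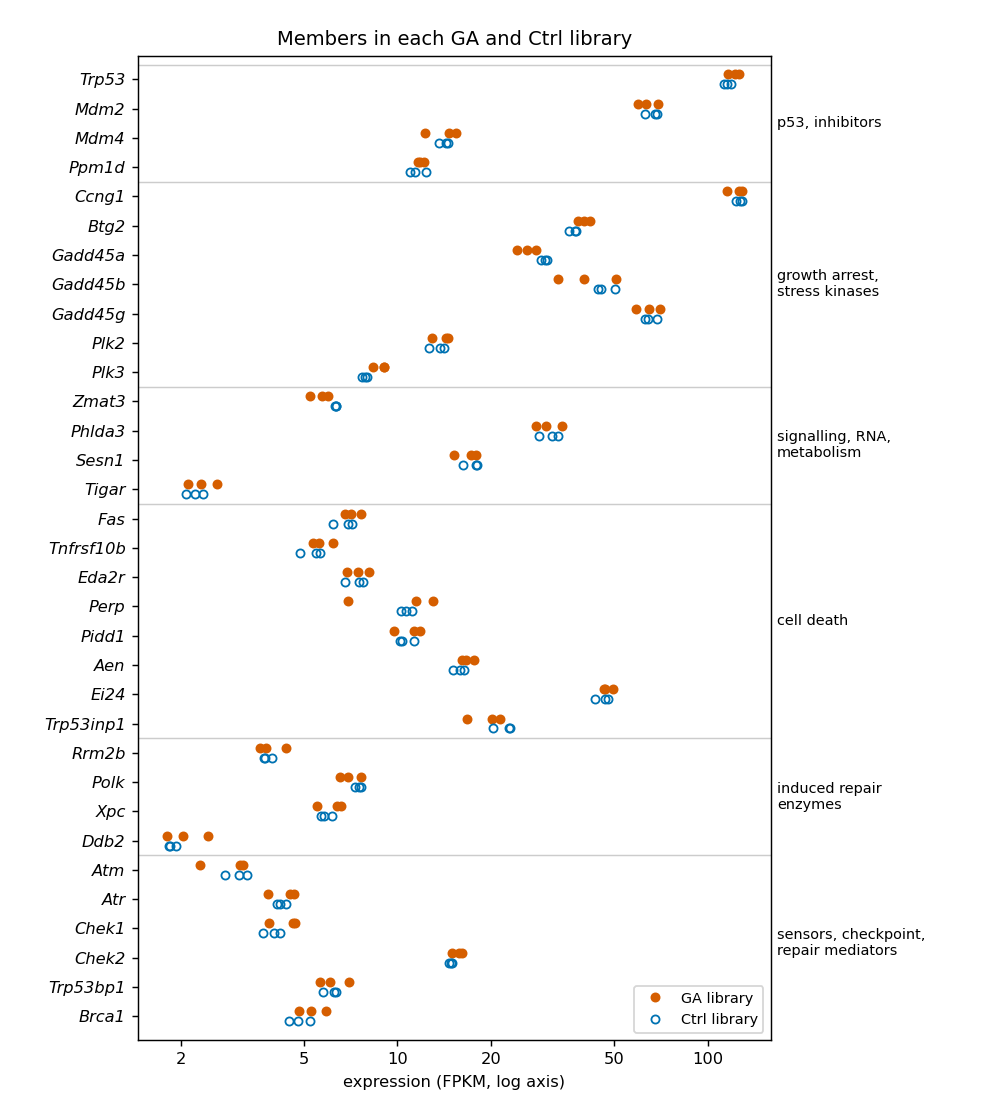
Expression of the 33 members in FPKM (log axis), with 1 row per gene, grouped by role; filled points are the 3 GA libraries and open points, drawn just under them, the 3 Ctrl libraries. GA points are spread more widely than Ctrl points in most rows, and only Btg2, Gadd45a, Plk3 and Zmat3 have GA and Ctrl points that do not overlap.

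None of the genes of p53 and its inhibitors passed the test. Trp53, the gene of p53 itself, was 126.31, 116.27 and 122.98 FPKM in GA libraries, against 118.60, 112.92 and 115.16 FPKM in Ctrl libraries. Of its GA libraries, 2 lay above the Ctrl range and 1 inside it, and the difference was 0.075 on the log2 scale (SE 0.046, 95% interval -0.029 to 0.18; limma adjusted p = 0.527). Mdm2, at once a p53 target and the ligase that degrades p53, was 69.10, 63.16 and 59.73 FPKM in GA libraries, against 62.96, 68.54 and 67.76 FPKM in Ctrl libraries. Here GA replicate 1 was the highest and GA replicate 3 the lowest of the 6 libraries, and the log2 difference was -0.054 (SE 0.060, interval -0.19 to 0.080; limma adjusted p = 0.762). Mdm4, which masks the activation domain of p53, was 12.32, 14.64 and 15.49 FPKM in GA libraries, against 13.64, 14.36 and 14.60 FPKM in Ctrl libraries. The order of the GA libraries was the reverse of that of Mdm2, and the log2 difference was -0.010 (SE 0.079; limma adjusted p = 0.974). Ppm1d, the Wip1 phosphatase that p53 induces and that resets Atm and p53, averaged 11.9 ± 0.235 FPKM in GA libraries and 11.6 ± 0.682 FPKM in Ctrl libraries (SD, n = 3 each).

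Of the 7 growth arrest and stress kinase genes, 3 (42.9%) had GA and Ctrl values that did not overlap, against 19.9% of all tested genes. Of these, 2 were higher and 1 lower in GA, and they made up 3 of the 4 members without overlap. Gadd45a, a p53 target whose protein binds PCNA and the stress kinase MEKK4, was 26.18, 28.05 and 24.28 FPKM in GA libraries, against 29.14, 29.96 and 30.44 FPKM in Ctrl libraries. Every GA library was below every Ctrl library, with a log2 difference of -0.19 (SE 0.058, interval -0.31 to -0.056; unadjusted p = 0.00971, limma adjusted p = 0.249). Btg2, a p53 target that slows proliferation and acts with the CCR4-NOT deadenylase, was 41.92, 39.93 and 38.21 FPKM in GA libraries, against 35.67, 37.69 and 37.36 FPKM in Ctrl libraries. Every GA library was above every Ctrl library, with a log2 difference of 0.11 (SE 0.050, interval 0.0019 to 0.22; unadjusted p = 0.0470, limma adjusted p = 0.363). Plk3, a polo-like kinase of the stress response, was 8.35, 9.06 and 9.08 FPKM in GA libraries, against 7.72, 8.01 and 7.86 FPKM in Ctrl libraries. Again the groups did not overlap, and the log2 difference was 0.15 (SE 0.060, interval 0.015 to 0.28; unadjusted p = 0.0329, limma adjusted p = 0.331). None of these passed over all genes. The sign of each difference was the same under all 18 alternatives run, but most of these could not have changed it. Leaving out 1 library, another filter or another variance setting cannot reverse groups that do not overlap. The size of the Btg2 difference depended on the scaling, as it was 0.056 (limma adjusted p = 0.762) after all libraries were brought to a common sum. In GENCODE coordinates of GRCm38, Gadd45a lies at chr6:67035096-67037457, Btg2 at chr1:134075170-134079120 and Plk3 at chr4:117128655-117133963, all on the minus strand. Of the exonic bases, 19.1% of Gadd45a and 3.32% of Plk3 overlap a gene on the opposite strand, whose reads cannot be told apart because no strand setting was given.

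The sister genes of Gadd45a had GA and Ctrl values that overlapped. Gadd45b, induced mainly by NF-kB and TGF-beta signalling, was 50.51, 39.86 and 33.03 FPKM in GA libraries, against 45.28, 44.29 and 50.13 FPKM in Ctrl libraries (given in full after its values were seen). GA replicate 1 was the highest library and the other GA libraries were the lowest, so that the log2 difference of -0.19, as large as that of Gadd45a, had a wide interval of -0.47 to 0.083 (limma adjusted p = 0.544). It was negative under all 18 alternatives. Gadd45g, induced by cytokines in blood cells, averaged 64.6 ± 5.58 FPKM in GA libraries and 65.3 ± 2.96 FPKM in Ctrl libraries. Cyclin G1 (Ccng1), which recruits a phosphatase to Mdm2, was the most abundant member and averaged 123.9 ± 7.04 FPKM in GA libraries and 126.5 ± 2.54 FPKM in Ctrl libraries. The polo-like kinase Plk2 averaged 13.98 ± 0.889 FPKM in GA libraries and 13.5 ± 0.804 FPKM in Ctrl libraries. All 3 had overlapping groups.

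Among the targets of signalling, RNA processing and metabolism, Zmat3 had groups that did not overlap. Zmat3, a zinc-finger protein that binds RNA and steers splicing, was 5.96, 5.71 and 5.23 FPKM in GA libraries, against 6.31, 6.32 and 6.35 FPKM in Ctrl libraries. Every GA library was below the 3 Ctrl libraries, which lay very close together, and the log2 difference was -0.14 (SE 0.066, interval -0.29 to 0.0030; unadjusted p = 0.0539, limma adjusted p = 0.381). Phlda3, a small pleckstrin-homology protein that competes with Akt at the membrane, averaged 30.7 ± 3.01 FPKM in GA libraries and 31.1 ± 2.23 FPKM in Ctrl libraries. Sesn1, a sestrin that restrains mTORC1, averaged 16.8 ± 1.4 FPKM in GA libraries and 17.5 ± 0.994 FPKM in Ctrl libraries. Tigar, a phosphatase that lowers glycolytic flux, averaged 2.36 ± 0.251 FPKM in GA libraries and 2.23 ± 0.145 FPKM in Ctrl libraries, and 3.34% of its exonic bases overlap an antisense gene.

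The 8 cell death targets all had overlapping groups and limma adjusted p values of 0.394 or more, with 6 higher and 2 lower in GA by their mean on the log2 scale. Of the death receptors, Fas averaged 7.16 ± 0.438 FPKM in GA libraries and 6.77 ± 0.486 FPKM in Ctrl libraries, and the TRAIL receptor Tnfrsf10b averaged 5.72 ± 0.440 FPKM in GA libraries and 5.31 ± 0.414 FPKM in Ctrl libraries. Eda2r, the receptor of ectodysplasin A2, averaged 7.46 ± 0.610 FPKM in GA libraries and 7.34 ± 0.50 FPKM in Ctrl libraries. The differences of these receptors were within the spread between libraries. Pidd1, the scaffold of the complex that activates caspase-2, averaged 10.96 ± 1.09 FPKM in GA libraries and 10.6 ± 0.590 FPKM in Ctrl libraries. Aen, a nuclease of apoptotic cells, averaged 16.8 ± 0.756 FPKM in GA libraries and 15.8 ± 0.632 FPKM in Ctrl libraries. Ei24, an endoplasmic reticulum protein found by its induction with etoposide, averaged 47.6 ± 1.71 FPKM in GA libraries and 45.9 ± 2.18 FPKM in Ctrl libraries, and 6.66% of its exonic bases overlap an antisense gene. The remaining members of this role were those with the lowest GA values relative to Ctrl. Trp53inp1, a stress protein that promotes p53 phosphorylation and autophagy, averaged 19.4 ± 2.38 FPKM in GA libraries and 22.1 ± 1.53 FPKM in Ctrl libraries, a log2 difference of -0.18 (SE 0.086, interval -0.38 to 0.0095; unadjusted p = 0.0601, limma adjusted p = 0.394). Perp, a membrane protein of desmosomes and of p53-dependent apoptosis, was 13.01, 11.45 and 6.93 FPKM in GA libraries, against 10.30, 10.63 and 11.15 FPKM in Ctrl libraries (given in full after its values were seen). The GA libraries lay on both sides of the Ctrl range, and the interval of its log2 difference ran from -0.45 to 0.31.

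The 4 repair enzymes that p53 induces also had overlapping groups. Rrm2b, the p53-inducible small subunit of ribonucleotide reductase, averaged 3.92 ± 0.414 FPKM in GA libraries and 3.80 ± 0.127 FPKM in Ctrl libraries. Polk, a translesion DNA polymerase, averaged 7.03 ± 0.547 FPKM in GA libraries and 7.47 ± 0.164 FPKM in Ctrl libraries. Xpc, which finds distorted DNA for nucleotide excision repair, averaged 6.16 ± 0.565 FPKM in GA libraries and 5.88 ± 0.246 FPKM in Ctrl libraries. Ddb2, which recognises ultraviolet lesions, averaged 2.10 ± 0.331 FPKM in GA libraries and 1.88 ± 0.0551 FPKM in Ctrl libraries and was the least abundant member. The differences of all 4 were smaller than the SD of the GA libraries. Of the exonic bases, 23.8% of Ddb2 and 8.04% of Rrm2b overlap a gene on the opposite strand.

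The damage sensors, checkpoint kinases and repair mediators were low to moderate in level, and none passed the test. Atm, the kinase of DNA double-strand breaks, was 2.31, 3.11 and 3.18 FPKM in GA libraries, against 3.27, 2.79 and 3.09 FPKM in Ctrl libraries. Only GA replicate 1 lay below the Ctrl libraries, and the log2 difference was -0.073 (SE 0.10, interval -0.30 to 0.16; limma adjusted p = 0.827). Atr, the kinase of single-stranded DNA and stalled forks, was 3.83, 4.51 and 4.64 FPKM in GA libraries, against 4.17, 4.08 and 4.39 FPKM in Ctrl libraries. Its GA libraries lay on both sides of the Ctrl range, with a log2 difference of 0.028 (SE 0.079; limma adjusted p = 0.921).

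Chek1, the kinase that Atr activates, was 3.87, 4.62 and 4.67 FPKM in GA libraries, against 3.68, 4.19 and 4.01 FPKM in Ctrl libraries. Of the GA libraries, 2 were above all Ctrl libraries and GA replicate 1 was inside their range, and the log2 difference was 0.12 (SE 0.083, interval -0.069 to 0.30; limma adjusted p = 0.592). Chek2, the kinase that Atm activates, was 15.78, 16.18 and 14.98 FPKM in GA libraries, against 14.86, 14.67 and 14.99 FPKM in Ctrl libraries. It was the most abundant of the 6, and its log2 difference was 0.071 (SE 0.052, interval -0.045 to 0.19; limma adjusted p = 0.60). Brca1, which directs breaks to homologous recombination, was 4.82, 5.25 and 5.87 FPKM in GA libraries, against 5.23, 4.47 and 4.77 FPKM in Ctrl libraries. GA replicate 1 was inside the Ctrl range and the other GA libraries above it, with a log2 difference of 0.12 (SE 0.083, interval -0.071 to 0.30; limma adjusted p = 0.597). Trp53bp1 (53BP1), which directs breaks to end joining, was 6.08, 5.62 and 6.97 FPKM in GA libraries, against 5.78, 6.35 and 6.23 FPKM in Ctrl libraries. Its groups were interleaved and its log2 difference was 0.017 (SE 0.080; limma adjusted p = 0.954). Of the exonic bases of Trp53bp1, 15% overlap Tubgcp4 on the opposite strand. Beside Chek1 and Brca1, whose RNA is known to be highest in S phase, the list of 37 proliferation genes was higher in GA for 31 genes with a median log2 difference of 0.086, its summed level was 1510 to 1663 FPKM in GA libraries and 1459 to 1480 FPKM in Ctrl libraries, and in the 3 GA libraries its median deviated from the Ctrl mean by 0.0078, 0.065 and 0.17. The part of proliferation in the values of Chek1 and Brca1 was not tested.

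**Figure D2:**
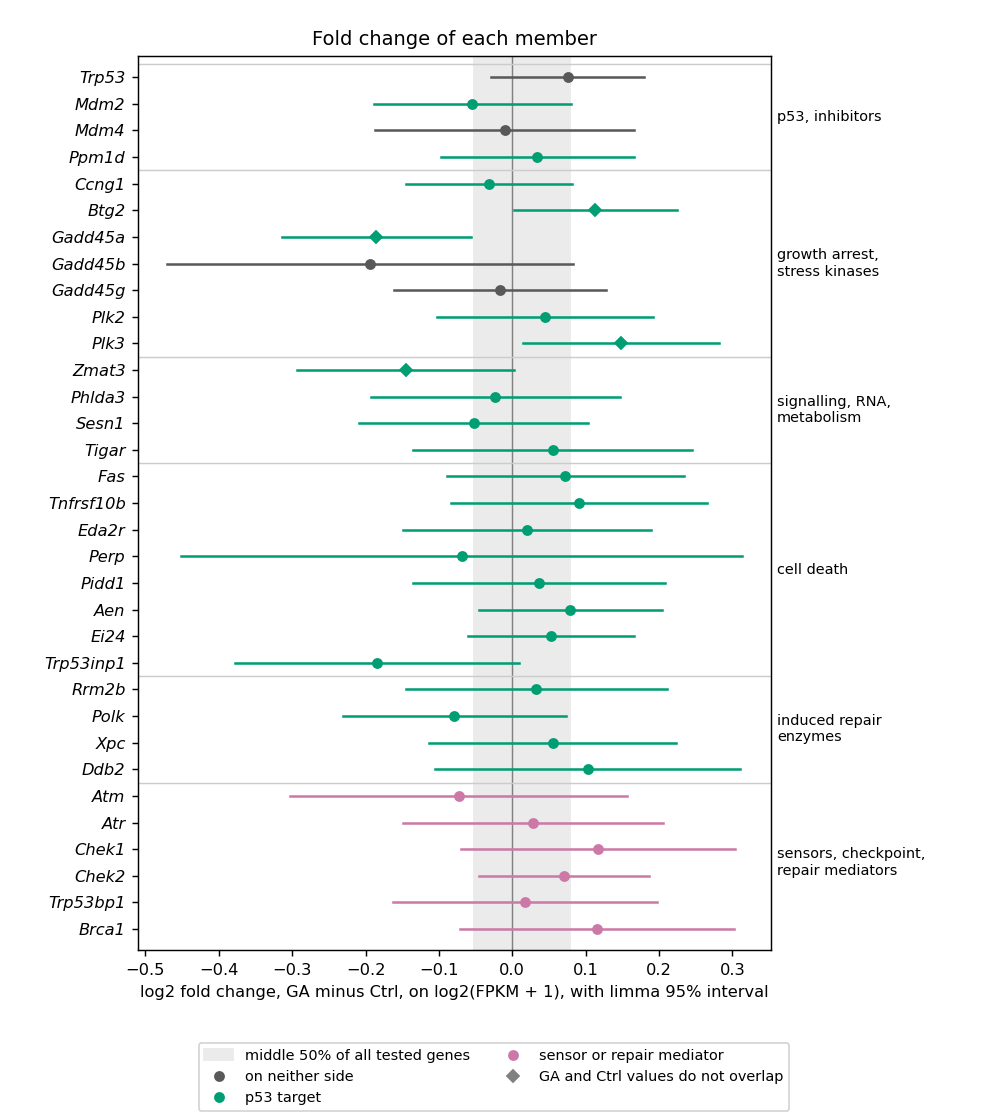
Log2 difference of each member, GA minus Ctrl, on log2(FPKM + 1), with limma's 95% interval as a line; diamonds mark members whose GA and Ctrl values do not overlap, colours mark p53 targets, sensors and repair mediators, and genes on neither side, and the grey band holds the middle 50% of all tested genes. The intervals of Btg2, Gadd45a and Plk3 leave out 0, with Gadd45a to the left of it at -0.19, and those of Perp and Gadd45b are the widest.

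Counted together, the members passed neither of 2 looser criteria in a larger share than the genes of the table. An unadjusted p under 0.05 was reached by 3 of 33 members (9.09%: Btg2 and Plk3 higher, Gadd45a lower), against 13.5% of all tested genes. In 4 of 33 members the GA values lay clear of the Ctrl values (12.1%: Btg2 and Plk3 higher, Gadd45a and Zmat3 lower), against 19.9% of all tested genes, 11.6% higher and 8.29% lower. By the sign of the log2 difference, 20 members were higher and 13 lower, against 5981 and 4931 of all tested genes. These counts varied with single libraries, and 1 member had an unadjusted p under 0.05 without GA replicate 2, Ctrl replicate 2 or Ctrl replicate 3. In that order, 734, 631 and 620 of 10912 tested genes were higher and 419, 288 and 277 lower at that p. The main fit had 969 and 505. Without Ctrl replicate 1, 8 members had no overlap, and values without GA replicate 1 follow further on. With median-of-ratios or TMM-type scaling, 2 members had an unadjusted p under 0.05 and 3 had no overlap. Of all tested genes, 728 or 755 were then higher and 679 or 659 lower at that p. The share of all tested genes without overlap is not given here for these settings. No member was called, and the 95% intervals of 31 members, all but Perp and Gadd45b, lay between -0.38 and 0.31 on the log2 scale.

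The median difference of the p53 targets and that of the sensors and repair mediators were both close to 0. Of the 23 targets, the sign was positive for 14 and negative for 9, with 0.034 as the median log2 difference and 0.0050 as the mean. The 4 members without overlap were all targets (17.4% of the 23, against 19.9% of all tested genes). Of the 6 sensors and repair mediators, 5 had a positive and 1 a negative difference, the median was 0.050, and GA and Ctrl values overlapped in all 6. All tested genes had a median of 0.012. The difference between the medians, targets minus sensors and repair mediators, was -0.016, less than the SD of that difference between libraries of one group (0.084). The target median was 0.00097 without Ctrl replicate 1. After all libraries were brought to a common sum, the target median was -0.018 and the sensor and repair median -0.0026, with 3 of those 6 genes higher and 3 lower. Library by library, against the Ctrl mean, the median over the targets was 0.029, 0.021 and 0.013 in GA libraries, and -0.047, 0.024 and 0.028 in Ctrl libraries. The median over the sensors and repair mediators was -0.016, 0.092 and 0.14 in GA libraries, and -0.0049, -0.026 and 0.016 in Ctrl libraries. So the targets of the 3 GA libraries lay between the lowest and just past the highest Ctrl library, whereas the sensors of GA replicates 2 and 3 lay above it and those of GA replicate 1 within it. The 2 sides differ in the length of their transcripts, with medians of 3099 nt for the targets and 7337 nt for the sensors and repair mediators. With the length trend of each library removed, the median over the sensors and repair mediators was 0.072, 0.093 and 0.14 in GA libraries, and -0.013, -0.017 and 0.012 in Ctrl libraries. All 3 GA libraries then lay above all Ctrl libraries. The median over the targets was 0.099, -0.0051 and -0.031 in GA libraries, and -0.052, 0.030 and 0.023 in Ctrl libraries, which overlapped. The median log2 differences were then 0.028 for the targets and 0.090 for the sensors and repair mediators, a difference of -0.062 that was not tested.

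**Figure D3:**
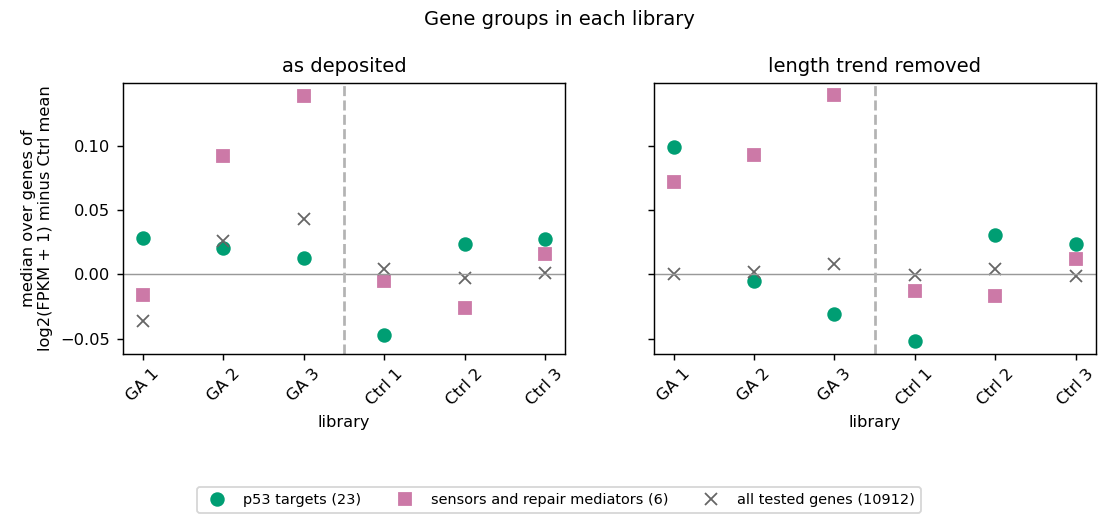
Median over genes of log2(FPKM + 1) minus the Ctrl mean in each library, for the 23 p53 targets, the 6 sensors and repair mediators and all 10912 tested genes, as deposited (left) and with the transcript length trend of each library removed (right). As deposited, the sensors and repair mediators reach 0.14 in GA replicate 3 and -0.016 in GA replicate 1, while the target medians of the GA libraries lie between 0.013 and 0.029.

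The spread of the members among GA libraries was wider than among Ctrl libraries. The coefficient of variation of FPKM had a median over the members of 8.31% in GA libraries and 4.55% in Ctrl libraries, and it was larger in GA for 29 of 33 members, against 72.3% of all tested genes. Over all tested genes the medians were 6.99% in GA libraries and 4.05% in Ctrl libraries. In 6 members (18.2%), Mdm2, Ccng1, Phlda3, Perp, Polk and Gadd45b, GA replicate 1 was above all Ctrl libraries and GA replicate 3 below them, a pattern held by 5.01% of all tested genes and noticed after the values were seen. In a further 5 members (15.2%), Mdm4, Gadd45g, Xpc, Ddb2 and Atr, the 2 libraries took the opposite places, against 18.2% of all tested genes. Among the 23 p53 targets, GA replicate 3 gave the lowest value of the 6 for 9 (39.1%), against 11.6% of all tested genes. Ctrl replicate 1 gave it for 8 (34.8%, against 13.8%) and GA replicate 1 for 3 (13%, against 38.8%). A raised share of lowest values among the targets was thus not limited to GA libraries. Among the 6 sensors and repair mediators, GA replicate 3 gave the highest value for 4 (66.7%), against 30.7% of all tested genes.

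The first of these patterns was also seen in genes outside the members. It was held by 7 of 18 megakaryocyte and platelet genes (38.9%) and 3 of 10 erythroid genes (30.0%), against 5.01% of all tested genes. Of 33 tested p53 targets outside the members, 6 (18.2%) held it. It was held by 0 of 17 neutrophil and 0 of 37 proliferation genes. Pf4 was 17513, 13453 and 11829 FPKM in GA libraries, against 13012, 13390 and 13592 FPKM in Ctrl libraries. Gp9, of the platelet glycoprotein Ib-IX-V complex, was 1070.4, 816.6 and 730.61 FPKM in GA libraries, against 840.75, 865.4 and 877.5 FPKM in Ctrl libraries. Most genes of the megakaryocyte and platelet list were lower in GA: 15 of 18, with a median log2 difference of -0.12. At an unadjusted p under 0.05, 10 (55.6%) were lower, against 4.63% of all tested genes. Without overlap, 8 (44.4%) were lower, against 8.29% of all tested genes. Itga2b, an integrin of the lineage, was 966.25, 916.83 and 954.3 FPKM in GA libraries, against 1063.7, 1075.2 and 1056.5 FPKM in Ctrl libraries. The list median was negative under all 18 alternatives. The summed level of that list, most of it Pf4, was 21823 to 29702 FPKM in GA libraries and 24415 to 25129 FPKM in Ctrl libraries, and none of its genes was at 0. The part of megakaryocyte, platelet or erythroid RNA, and of GA replicate 1, in the values of Mdm2, Ccng1, Phlda3, Perp, Polk and Gadd45b was not tested.

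**Figure D4:**
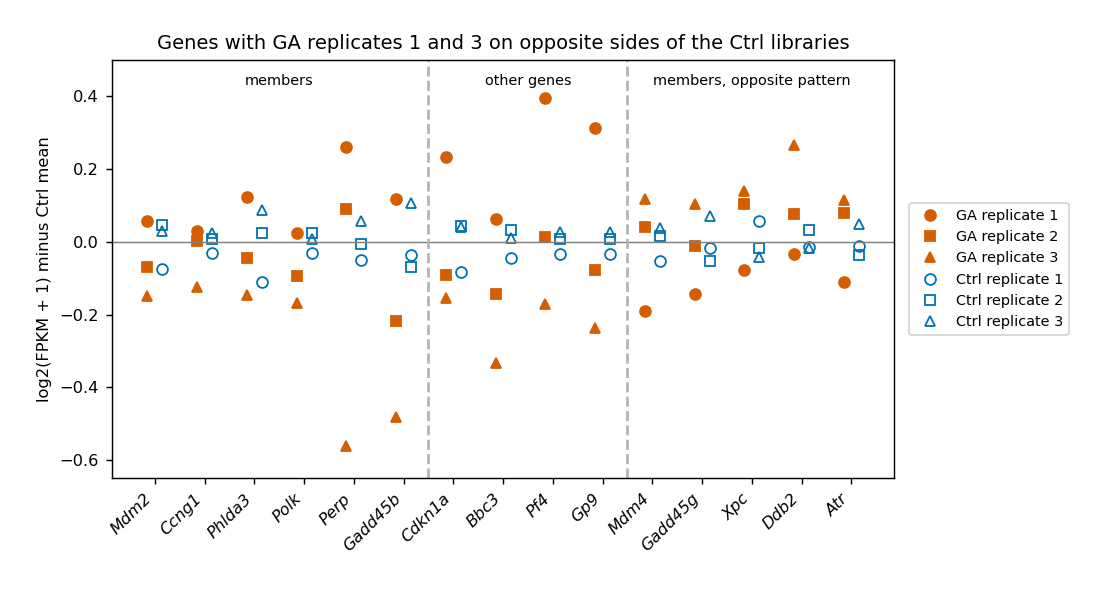
Log2(FPKM + 1) of each library minus the Ctrl mean, for genes in which GA replicates 1 and 3 lie on opposite sides of all Ctrl libraries; filled orange marks are GA libraries and open blue marks Ctrl libraries, with the replicate given by shape. The 6 members on the left, with Cdkn1a, Bbc3, Pf4 and Gp9 in the middle, have GA replicate 1 on top and GA replicate 3 at the bottom, and the 5 members on the right the reverse.

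Without GA replicate 1, more members separated, as did more genes of the table. The GA and Ctrl values of 15 of 33 members (45.5%) then did not overlap, 10 higher and 5 lower, against 38.9% of all tested genes, 26.7% higher and 12.2% lower. An unadjusted p under 0.05 was reached by 8 members (24.2%: Chek1 and Plk3 higher, and Mdm2, Gadd45a, Gadd45b, Zmat3, Trp53inp1 and Polk lower), against 21.1% of all tested genes. The 3 sensors that no longer overlapped were Atr, Chek1 and Brca1, all higher in GA. No member was called, although 114 genes of the table (1.04%) were, and the log2 difference of Gadd45b was -0.35 (limma adjusted p = 0.0641). Without GA replicate 1 and with the length trend removed, 1 member was called, Gadd45b at -0.42 (limma adjusted p = 0.0480), beside 0.99% of all tested genes.

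Other p53 targets, outside the 33 members, held no called gene either. Of 39 listed, 33 passed the filter, with 20 higher and 13 lower and a median log2 difference of 0.050. An unadjusted p under 0.05 was reached by 6 (18.2%), against 13.5% of all tested genes. All 6 were higher in GA, against 8.88% of all tested genes in that direction. Groups without overlap were found for 7 (21.2%), against 19.9%, and all 7 were higher, against 11.6% in that direction. Cdkn1a, the p21 inhibitor of cyclin-dependent kinases and the best known p53 target, was 243.14, 194.05 and 185.89 FPKM in GA libraries, against 195.18, 213.17 and 212.87 FPKM in Ctrl libraries, a log2 difference of -0.0046 (SE 0.091, interval -0.21 to 0.20; limma adjusted p = 0.990). It showed the order of Mdm2, with GA replicate 1 highest and GA replicate 3 lowest. Of the BCL2 family targets, the pro-apoptotic Bax was 262.20, 231.16 and 221.59 FPKM in GA libraries, against 216.09, 216.29 and 201.81 FPKM in Ctrl libraries. Its groups did not overlap, and its log2 difference was 0.17 (SE 0.065; unadjusted p = 0.0270, limma adjusted p = 0.312). Bbc3 (Puma) was 86.56, 74.77 and 65.44 FPKM in GA libraries, against 80.25, 84.73 and 83.38 FPKM in Ctrl libraries. It too had GA replicate 1 highest and GA replicate 3 lowest. Pmaip1 (Noxa) averaged 4.20 ± 0.143 FPKM in GA libraries and 4.34 ± 0.730 FPKM in Ctrl libraries.

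The members of that list with the smallest p, besides Bax, were Gpx1, Gdf15 and Casp8. Gpx1, a glutathione peroxidase, averaged 427.6 ± 26.3 FPKM in GA libraries and 366.9 ± 10.9 FPKM in Ctrl libraries, a log2 difference of 0.22 (limma adjusted p = 0.217). Gdf15, a secreted stress cytokine, averaged 26.4 ± 1.25 FPKM in GA libraries and 22.9 ± 1.11 FPKM in Ctrl libraries, a log2 difference of 0.20 (limma adjusted p = 0.232). Casp8, the initiator caspase of death receptors, averaged 34.5 ± 0.785 FPKM in GA libraries and 31.7 ± 0.401 FPKM in Ctrl libraries, a log2 difference of 0.12 (limma adjusted p = 0.297). None passed over all genes.

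Other genes of damage signalling and repair, 58 listed and all tested, were higher in GA for 43 and lower for 15, with a median log2 difference of 0.015. An unadjusted p under 0.05 was reached by 6 (10.3%), against 13.5% of all tested genes. All 6 were higher in GA, against 8.88% of all tested genes in that direction. H2ax, the histone variant phosphorylated around breaks, averaged 124.1 ± 2.67 FPKM in GA libraries and 123.2 ± 4.35 FPKM in Ctrl libraries. Its reader Mdc1 averaged 12.4 ± 1.21 FPKM in GA libraries and 12.3 ± 0.277 FPKM in Ctrl libraries. The end-joining kinase Prkdc averaged 4.33 ± 0.125 FPKM in GA libraries and 4.57 ± 0.223 FPKM in Ctrl libraries. These 3 defining genes did not pass the test (limma adjusted p of 0.748 or more). Among the smallest p values of the list were those of Apex1, Atrip and Ung, of base excision repair, Atr signalling and uracil removal. Apex1, the main abasic-site endonuclease, was 52.05, 51.62 and 53.09 FPKM in GA libraries, against 46.79, 47.71 and 46.04 FPKM in Ctrl libraries, a log2 difference of 0.15 (SE 0.041; unadjusted p = 0.00415, limma adjusted p = 0.226). Atrip and Ung each had a log2 difference of 0.17, with groups that did not overlap and limma adjusted p values of 0.311 and 0.331.

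The promoter letters and the measured differences were set side by side once more. The 8 p53 targets with a decamer in any window had a median log2 difference of -0.042. It was 0.050 for the 8 with a window and no decamer, against 0.012 over all tested genes. The difference between these groups of genes was not tested. Of the members without overlap, Gadd45a has the decamer shown above, Btg2 and Plk3 have a window without one, and Zmat3 has no window here. Among the other p53 targets, 4 of 35 genes with a window (11.4%) had a decamer, against 9.55% of all genes with one.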

How the data were processed

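Total RNA of 3 GA and 3 Ctrl samples was extracted with TRIzol and sequenced as DNBSEQ libraries on a BGISEQ-500 instrument. The submitters' processing notes name HISAT2 2.0.4, Bowtie2 2.2.5 and the mm10 genome, and the methods name RSEM; annotation and strand setting are not given in the sources used here. The deposited values are FPKM, which the authors calculated per gene; their group means were not used, and 0 per-sample columns were left without a sample. Low values did not come out as whole reads, so no count test was run and the depth is unknown.

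Samples were grouped by title. Genes that averaged 1 FPKM or more were tested on log2(FPKM + 1) with limma (version 3.58.1, under R 4.3.3), two-sided, allowing a mean-variance trend and no replicate block. Fold changes are GA minus Ctrl on that scale, which understates low genes. The script was tested on simulated data. Positions and transcript lengths came from GENCODE for GRCm38, which mm10 names. The length trend was a loess fit (span 0.5) of each library's deviation on log2 length. The members, their sides and the lists were chosen with earlier results of these data known. Values in every library are given for Trp53, Mdm2, Mdm4, the 6 sensors and repair mediators, and members without overlap or with an unadjusted p under 0.05; from both pathway lists, the defining genes and up to 4 with the smallest p; from other lists, defining genes that move with a result. Cd3e was not analysed here, and some genes that this rule names are not reported here. Alternatives were other pseudocounts, filters, scalings, limma without the trend, each library left out, the replicate block, length removal and other assignments of members to sides.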

Additional observations from a re-analysis of the deposited data

How the results depend on the processing

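Of 18 alternatives per member at most, 15 members kept the sign of their difference in all and 18 changed it in some; the cause of these changes was not tested. With every library rescaled to a common sum, 3 genes were called, the median of all tested genes was -0.043 in place of 0.012, 12 members were higher and 21 lower, the p53 target median was -0.018, and the differences of Ppm1d (-0.021), Plk2 (-0.011), Eda2r (-0.034), Pidd1 (-0.018), Ei24 (-0.0050), Rrm2b (-0.016), Atr (-0.021) and Trp53bp1 (-0.036) reversed. Removing the length trend reversed Fas (-0.030), also with the replicate block. With the length trend removed and GA replicate 1 left out, 108 genes and 1 member were called. An unadjusted p under 0.05 was reached by 10 members, beside 739 higher and 1039 lower of 10912 tested genes. In 11 members the groups did not overlap, and the share of all tested genes is not given here for that count. The p53 target median was -0.014, and Trp53 (-0.0022), Mdm4 (0.057), Eda2r (-0.037), Pidd1 (-0.016), Ei24 (-0.018) and Atm (0.052) reversed.

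Leaving out 1 library at a time gave 0 to 114 genes called (114 without GA replicate 1) and 0 members called. An unadjusted p under 0.05 was reached by 1 to 8 members (8 without GA replicate 1, and 1 without GA replicate 2, Ctrl replicate 2 or Ctrl replicate 3). Of all tested genes, 620 were higher and 277 lower at that p without Ctrl replicate 3, and 1640 higher and 660 lower without GA replicate 1. Leaving out 1 library gave 5 to 15 members without overlap (8 without Ctrl replicate 1). The 15 were without GA replicate 1, where 38.9% of all tested genes had no overlap. The p53 target median was 0.00097 (without Ctrl replicate 1) to 0.035, the sensor and repair median 0.019 to 0.081 and the difference between them -0.057 to 0.013. The members whose difference changed sign ran from -0.074 to 0.080 for Mdm4, -0.077 to 0.046 for Gadd45g, -0.098 to 0.012 for Sesn1, -0.032 to 0.073 for Eda2r, -0.13 to 0.035 for Atm, -0.00054 to 0.11 for Tigar, -0.034 to 0.080 for Rrm2b, -0.061 to 0.016 for Ccng1, -0.096 to 0.039 for Phlda3, -0.23 to 0.18 for Perp, -0.014 to 0.11 for Pidd1, -0.015 to 0.097 for Atr, -0.056 to 0.078 for Trp53bp1 and -0.00061 to 0.094 for Plk2.

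The methods state no pairing of GA and Ctrl libraries. The deviations of same-numbered GA and Ctrl libraries correlated at -0.169, -0.130 and 0.004 across genes. Those of differently numbered libraries correlated at -0.131 to 0.191. Deviations within groups of 3 are tied to one another, so these values cannot settle whether the libraries were paired. With the replicate block 1 member, Gadd45a, had an unadjusted p under 0.05 in place of 3, and 0 were called. Of all tested genes, 796 were higher and 381 lower at that p, in place of 969 and 505. With FPKM of unknown depth and 3 libraries a group, small differences of low genes such as Ddb2, Tigar and Atm could not be resolved.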
